A study of Mus musculus with 12 samples.

Results

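Non-muscle myosin and the cytoskeleton of the synthetic smooth muscle cell were followed through 10 genes: Myh9, Myh10, Tpm3, Tpm4, Cald1, Actg1, Vcl, Actn1, Actn4 and Vim. They are 10 of 34796 gene names on the arrays. The members were taken by gene name from the non-control probes, which gave 20 probes of 55675, and 18 of these passed the filter on dim signal among 27801 probes tested. Each gene was represented by its tested probe with the highest mean, and the other probes are described where they differ.

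RNA was measured in aortas of male C57BL/6J mice aged 11 to 14 weeks, from a 10 mm piece of aorta ending above the branch of the right renal artery, on day 3 of treatment. All 4 groups held 3 mice, with 1 array for each mouse. DMSO mice received the vehicle dimethylsulfoxide, and rapamycin mice received 2 mg/kg/day of the mTOR inhibitor in that vehicle, both by intraperitoneal injection. BA+DMSO mice received a challenge of beta-aminopropionitrile (BAPN), an inhibitor of collagen crosslinking given at 150 mg/kg/day, and angiotensin II (AngII) at 1 µg/kg/min by minipump, together with vehicle. The BA+rapamycin mice had the same challenge and the same dose of rapamycin. Titles of the DMSO samples carry the word Pre, whereas the treatment label gives DMSO. The samples were whole pieces of aorta, so fewer cells of a type and less RNA per cell cannot be told apart.

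Smooth muscle cells of the vessel wall hold 2 actomyosin systems. The contractile one is built from smooth muscle myosin (Myh11), smooth muscle actin (Acta2), Tpm1, Tpm2 and calponin, while the non-muscle one, which serves migration, division and adhesion, uses the heavy chains of Myh9 (myosin IIA) and Myh10 (myosin IIB), gamma actin (Actg1), and Tpm3 and Tpm4. Vinculin (Vcl) and the alpha-actinins (Actn1, Actn4) link actin to adhesions and to other filaments, caldesmon (Cald1) binds actin and tropomyosin, and vimentin (Vim) forms intermediate filaments in mesenchymal cells and leukocytes. Serum response factor (Srf), with the cofactors encoded by Mkl1, Mkl2 and Myocd, acts on CArG boxes near many of these genes.

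Array brightness, taken as the 75th percentile of processed signal, ranged over 221 to 280 intensity units for the DMSO arrays, 257 to 337 for rapamycin, 78.1 to 246 for BA+DMSO and 74.6 to 109 for BA+rapamycin. All challenged arrays lay on 1 slide with 2 rapamycin arrays, and the DMSO arrays lay on the other slide with the third, so no slide held both DMSO and BA+DMSO arrays and only the rapamycin arrays link the 2 slides. Smooth muscle markers were well above background on every array. Their summed level relative to the 75th percentile spanned 2840 to 3060 for DMSO, 2570 to 3030 for rapamycin, 2450 to 4820 for BA+DMSO and 3470 to 4510 for BA+rapamycin. In the challenge Lmod1 was at −1.91, Smtn at −0.61, Myh11 at −0.56 and Cnn1 at −0.35, against 0.45 for Tagln and 0.27 for Acta2. Limma called 1 of these 6, Lmod1. Beside this and the marker counts below, 9.65% of all probes were called higher and 10.8% lower in the challenge. In the challenge under rapamycin these shares were 18.9% and 22.9%, and between BA+rapamycin and BA+DMSO 0.281% were called in either direction. Counts near these shares are not read as a change of a cell type. The summed level of 7 macrophage markers was 109 to 140, 119 to 143, 181 to 484 and 372 to 499 in that group order. Limma called 6 of them higher in the challenge. The signal of the Itgam probe made up most of that sum, and Itgam was the one not called (limma adjusted p = 0.0906). Between BA+rapamycin and BA+DMSO, Cd68 was at −0.67, Emr1 at −0.81, Mrc1 at −0.35 and Lyz2 at −0.025, against 0.70 for Itgam, 0.46 for Cd14 and 0.16 for Csf1r, and none of the 7 was called. Fibroblast markers summed to 573 to 855, 809 to 863, 734 to 1370 and 1270 to 1590 in that group order. Limma called 1 of the 7 higher in the challenge, Col1a1, and 2 in the challenge under rapamycin, Col1a1 (1.57) and Pi16 (1.66). In the latter Lum was at 0.40 and Fbln1 at 0.24, against −0.41 for Pdgfra, −0.42 for Dcn and −0.54 for Dpt, none called. Mesothelial markers summed to 0.47 to 2.95, 2.2 to 3.63, 6 to 13.3 and 1.37 to 10.8 in the same group order. Limma called 4 of 4 of them higher in the challenge. Limma also called higher in the challenge 3 of 7 endothelial markers, namely Kdr, Tie1 and Emcn. The remaining endothelial markers were not called, with Cdh5 at 0.58 and Vwf at 0.49, against −0.28 for Pecam1 and −0.28 for Tek. Also called higher there were 2 of 6 neutrophil and platelet markers (Ly6g and Pf4) and 1 of 5 adipocyte markers, the brown fat gene Ucp1. Ucp1 was not well above background on any DMSO array, and 3 of the 4 mesothelial markers were not so on all DMSO arrays, so these passed the filter only through BA+DMSO or rapamycin. In the challenge under rapamycin limma called 0 of 4 mesothelial and 0 of 5 adipocyte markers, and 5 of 7 macrophage markers higher. Of the endothelial markers it called Kdr higher (1.73) and Pecam1 (−0.87) and Tek (−0.99) lower there (limma adjusted p = 0.00221, 0.0256 and 0.0415). Of the neutrophil and platelet markers it called Itga2b and Gp9 higher, each well above background on 1 BA+rapamycin array. Itga2b was so on 1 rapamycin array and Gp9 on 0. Both passed the filter only through BA+DMSO, a group outside this comparison, so the sizes of their changes are uncertain. Of 3 tested lymphocyte markers Cd3e was called higher in both comparisons of the challenge (0.92 and 1.36, limma adjusted p = 0.0235 and 0.00244), and Cd8a was not above background on any array. Of 4 tested striated muscle markers none was called in the challenge and Acta1 was called lower in the challenge under rapamycin (−1.48, limma adjusted p = 0.0143), and Myh4 was not above background on any array. The part of these cells in the results below was not tested.

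Of the 10 genes, 4 were called in the challenge (BA+DMSO against DMSO), 2 higher and 2 lower, where limma called 20.5% of all probes at an adjusted p under 0.05, 9.65% higher and 10.8% lower. Without 1 array the count over all probes, 5697, became 3269, 2051 and 3050 without DMSO replicate 1, 2 and 3, 3105 without BA+DMSO replicate 1 and 10574 without BA+DMSO replicate 3. Myh9 and Tpm3 rose and Myh10 and Cald1 fell. In the challenge under rapamycin (BA+rapamycin against rapamycin) 5 genes were called, where 41.7% of all probes were, 18.9% higher and 22.9% lower. The count over all probes there, 11602, became 6530 without rapamycin replicate 3 and 7876 to 15816 without any other array. These were Myh9, Tpm3, Tpm4 and Actg1, which were higher, and Myh10, which was lower. The groups did not overlap for 4 of the 10 genes in the challenge, beside 34.6% of all probes, and for 9 of the 10 in the challenge under rapamycin, beside 65.9%. The median change of the 10 genes was −0.03 on the log2 scale in the challenge and 0.13 in the challenge under rapamycin, beside −0.04 and −0.08 over all probes. Levels are log2 signal minus the 75th percentile of the array, and they are compared only between groups for the same probe.

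**Figure D1:**
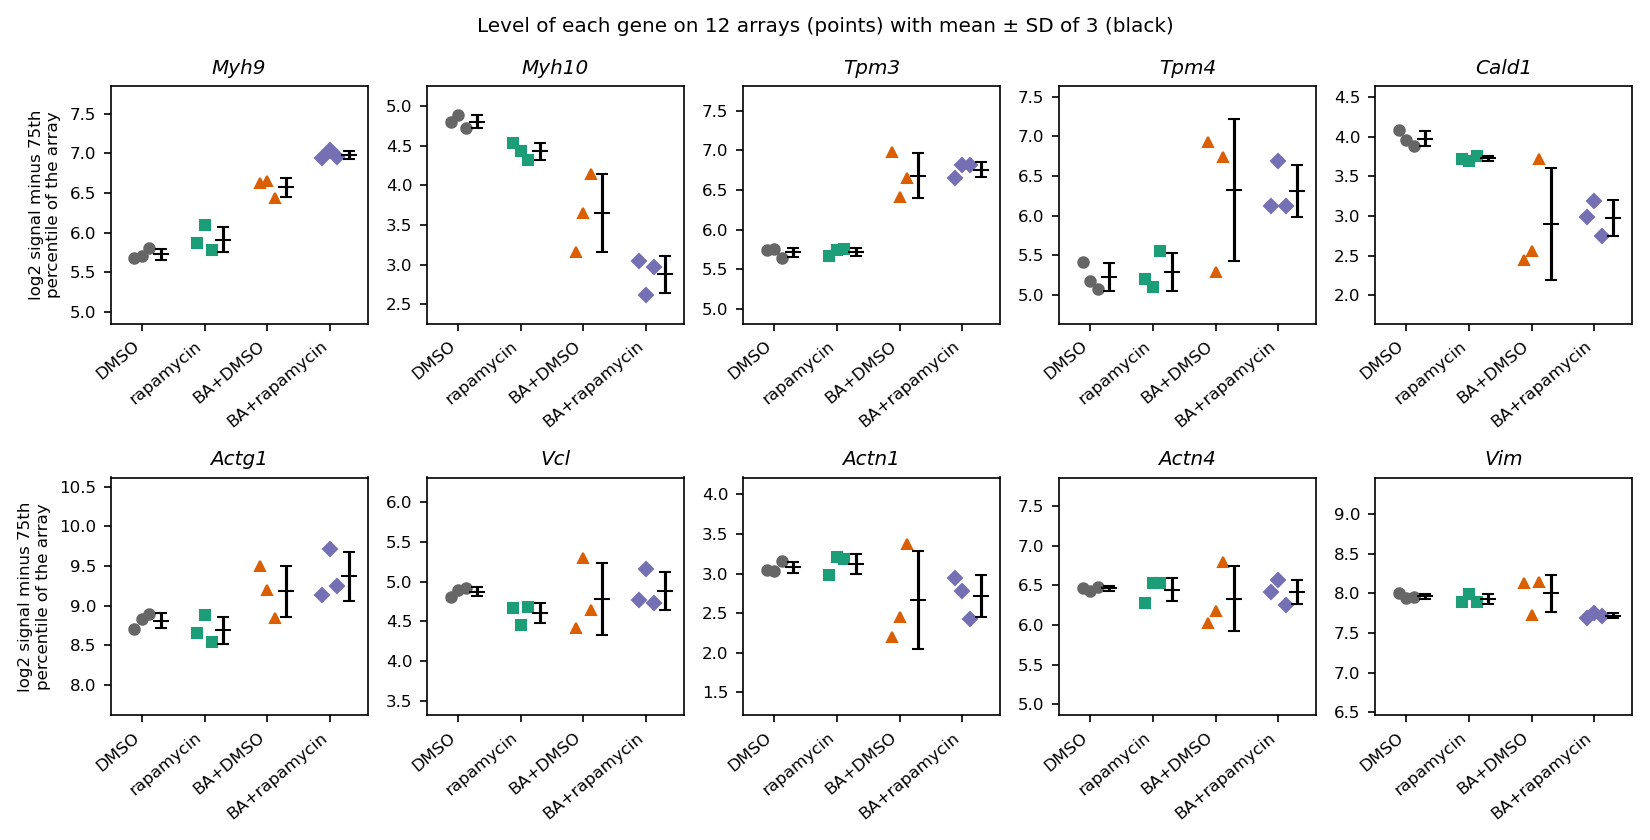
Level of each of the 10 genes on 12 arrays, as log2 signal minus the 75th percentile of the array, with 1 point per mouse and the mean ± SD of the 3 mice of a group in black. Each panel spans 3 log2 units. Myh9 and Tpm3 were higher on all 6 challenged arrays than on any unchallenged array, and Myh10 was lower.

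Myh9 encodes the heavy chain of non-muscle myosin IIA. Its main probe, at chr15:77591019-77591078 on the minus strand of mm9, read 5.68, 5.70 and 5.80 in the DMSO mice, 5.87, 6.09 and 5.78 in rapamycin, 6.62, 6.66 and 6.43 in BA+DMSO, and 6.94, 7.04 and 6.96 in BA+rapamycin. The 4 groups stood in the order BA+rapamycin, BA+DMSO, rapamycin and DMSO, and only the latter pair of neighbours overlapped. Myh9 rose 1.80-fold in the challenge (log2 change 0.85 ± 0.15, SE, n = 3 a group, limma adjusted p = 0.00385) and 2.09-fold in the challenge under rapamycin (1.07 ± 0.15, adjusted p = 0.000786). A second Myh9 probe, at chr15:77638189-77638248, is assigned to another transcript record and was dim. It was well above background on 1 of 3 arrays in each challenged group, and its changes of −0.42 in the challenge and 0.35 in the challenge under rapamycin were not called (limma adjusted p = 0.313 and 0.323). With both probes averaged, the rise in the challenge was 0.21 and was not called (limma adjusted p = 0.426).

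Myh10, the heavy chain of myosin IIB, moved in the opposite direction. The probe at chr11:68630067-68630126 on the plus strand read 4.80, 4.89 and 4.73 in DMSO, 4.54, 4.43 and 4.32 in rapamycin, 3.16, 3.65 and 4.14 in BA+DMSO, and 3.05, 2.61 and 2.97 in BA+rapamycin. All 4 groups were separate from their neighbours, in the order DMSO, rapamycin, BA+DMSO and BA+rapamycin. Myh10 fell 2.23-fold in the challenge (log2 change −1.16 ± 0.23, SE, n = 3 a group, limma adjusted p = 0.00743) and 2.93-fold in the challenge under rapamycin (−1.55 ± 0.23, adjusted p = 0.00108). A probe assigned to another transcript record of Myh10 was not well above background on any array and was not tested. With array brightness as a covariate, the fall in the challenge under rapamycin was −1.03 and was no longer called (limma adjusted p = 0.113).

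Tpm3 and Tpm4 encode tropomyosins that coat non-muscle actin filaments. The main Tpm3 probe, at chr3:89904428-89904487 on the plus strand, read 5.74, 5.75 and 5.65 in DMSO, 5.67, 5.74 and 5.76 in rapamycin, 6.97, 6.41 and 6.65 in BA+DMSO, and 6.64, 6.82 and 6.81 in BA+rapamycin. Every challenged array was above every unchallenged one, whereas the groups with and without rapamycin overlapped. Tpm3 rose 1.95-fold in the challenge (log2 change 0.97 ± 0.17, SE, n = 3 a group, limma adjusted p = 0.00349) and 2.05-fold in the challenge under rapamycin (1.04 ± 0.17, adjusted p = 0.0015).

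Tpm3 has 2 further probes, shown here because the array files assign each to a transcript record other than that of the main probe. Their positions are counted on different records, and whether the probes read the same isoforms was not tested. The first, at position 681 of its record and chr3:89892985-89893044, changed by 0.72 in the challenge (limma adjusted p = 0.148) and rose by 1.38 in the challenge under rapamycin (adjusted p = 0.00907). The second, at position 227 of its record and chr3:89877669-89877728, was not well above background on any array. Both are given 5′ to 3′ from the array files on the mm9 build.
Tpm3, position 681: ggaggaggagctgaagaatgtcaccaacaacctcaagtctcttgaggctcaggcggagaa
Tpm3, position 227: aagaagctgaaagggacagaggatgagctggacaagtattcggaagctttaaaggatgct

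Tpm4 varied most within the challenged groups. The probe at chr8:74676891-74676950 read 5.42, 5.18 and 5.08 in DMSO, 5.20, 5.10 and 5.56 in rapamycin, 6.93, 5.29 and 6.74 in BA+DMSO, and 6.12, 6.69 and 6.12 in BA+rapamycin. BA+DMSO replicate 2 lay within the DMSO range, while the other challenged arrays were above all unchallenged ones. The change was 1.1 ± 0.37 in the challenge (SE, n = 3 a group, limma adjusted p = 0.0585), which was not called, and without that array it was 1.61 (adjusted p = 0.00107). With all arrays kept it was also called in the deposited matrix, with 3 other scalings, with only probes well above background on all arrays, with slide as a random block and with brightness as a covariate, with values of 1.05 to 1.67 (limma adjusted p = 0.0105 to 0.0474). In the challenge under rapamycin Tpm4 rose 2.03-fold (1.02 ± 0.37, adjusted p = 0.0464). That call was lost without any 1 of the 9 arrays of the DMSO, rapamycin and BA+rapamycin groups, with values of 0.83 to 1.16. It was also lost after quantile normalization (0.87, limma adjusted p = 0.0594), in the deposited matrix (0.83, 0.062), with slide as a fixed block (0.98, 0.11) and with brightness as a covariate (2.03, 0.0622).

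Cald1, the gene of caldesmon, has smooth muscle and non-muscle forms that these probes do not separate by name. The probe at chr6:34723839-34723898 read 4.08, 3.96 and 3.88 in DMSO, 3.72, 3.70 and 3.76 in rapamycin, 2.44, 2.55 and 3.71 in BA+DMSO, and 2.98, 3.19 and 2.74 in BA+rapamycin. BA+DMSO replicate 3 stood apart from its group and within the range of the rapamycin mice. Cald1 fell 2.10-fold in the challenge (log2 change −1.07 ± 0.29, SE, n = 3 a group, limma adjusted p = 0.0255), and a second probe beside it fell by 1.09 (adjusted p = 0.0437). In the challenge under rapamycin the change was −0.75 (adjusted p = 0.0563) at the main probe and −1.0 (adjusted p = 0.0358) at the second. The main probe was called there without any 1 of the BA+DMSO arrays, after normexp and quantile normalization, with only probes well above background on all arrays, with array weights, with the mean over both probes and when only the 2 groups were fitted, with values of −0.88 to −0.58 (limma adjusted p = 0.000158 to 0.0472), and it was at 0.089 with brightness as a covariate. The call in the challenge was lost without any 1 of the DMSO arrays or without BA+DMSO replicate 1 or 2, with adjusted p of 0.0541 to 0.0959 (limma). It was also lost with array brightness as a covariate (−0.59, limma adjusted p = 0.189), with array weights (−0.64, 0.537), with slide as a fixed block (−1.08, 0.519), when only the 2 groups were fitted (0.131) and without the filter on dim probes (0.0594).

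**Figure D2:**
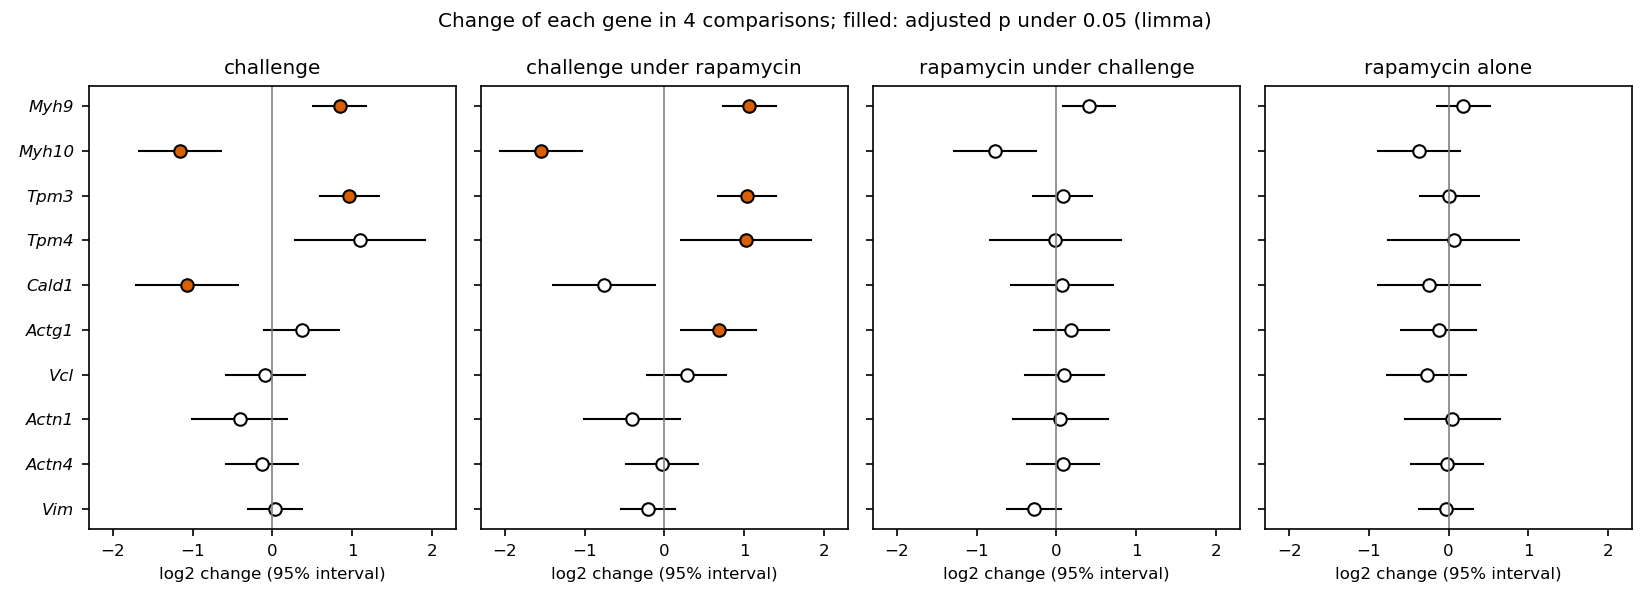
Log2 change of the 10 genes in 4 comparisons, with 95% intervals from limma and filled points where the adjusted p was under 0.05. Myh9 and Tpm3 lie to the right of 0 and Myh10 to the left with and without rapamycin, and the 2 comparisons of rapamycin have no filled point.

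Actg1 encodes cytoplasmic gamma actin, and the 5 tested probes that the files assign to it did not move as one. The main probe, at transcript position 1723, read 8.71, 8.83 and 8.89 in DMSO, 8.65, 8.88 and 8.54 in rapamycin, 9.5, 9.20 and 8.85 in BA+DMSO, and 9.14, 9.72 and 9.25 in BA+rapamycin. BA+DMSO replicate 3 lay inside the DMSO range, and all BA+rapamycin arrays lay above all rapamycin arrays. The change in the challenge was 0.37 ± 0.21 (SE, n = 3 a group, limma adjusted p = 0.238), and in the challenge under rapamycin Actg1 rose 1.60-fold (0.68 ± 0.21, adjusted p = 0.0265), although this change was −0.22 after quantile normalization and in the deposited matrix and −0.28 after normexp and quantile normalization. The call was also lost without rapamycin replicate 1 or 3 or without BA+rapamycin replicate 2, with values of 0.66, 0.61 and 0.51. It was lost as well with the mean over the tested probes (0.087, limma adjusted p = 0.732), with brightness as a covariate (0.15, 0.796) and with slide as a fixed block (0.66, 0.0733). The direction for Actg1 depends on the scaling of the arrays.

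The other probe near the 3′ end of Actg1, at position 1841, rose by 0.71 in the challenge under rapamycin (limma adjusted p = 0.016). The files place the 3 remaining probes on overlapping positions of the transcript. They hold different bases at some shared positions, so no single sequence matches all 3. Which of them match Actg1 itself was not tested. Their changes were −0.34 at position 624, 0.24 at position 662 and −0.85 at position 672 (limma adjusted p = 0.251, 0.507 and 0.0538). These probes are shown because they overlap and those at 662 and 672 read nearly the same bases, from the minus strand of chromosome 11 on mm9, with capitals where overlapping probes hold different bases.
Actg1, position 624, chr11:120208409-120208468: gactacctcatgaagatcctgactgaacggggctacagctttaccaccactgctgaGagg
Actg1, position 662, chr11:120208371-120208430: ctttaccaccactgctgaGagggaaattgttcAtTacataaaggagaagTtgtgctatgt
Actg1, position 672, chr11:120208361-120208420: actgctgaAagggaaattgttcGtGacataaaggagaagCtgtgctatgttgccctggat

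The probes at positions 662 and 672 share 50 positions and hold the same base at 46 of them. Counted along the transcript as the array files number it, and with the base of the probe at 662 first, the differences are G680A, A694G, T696G and T711C. The probe at 624 shares 22 positions with that at 662, all with the same base, and 12 with that at 672, 11 of them with the same base. Within each array, the mean of the 2 probes near the 3′ end minus the mean of the 3 overlapping probes came to 1.62, 1.86 and 1.96 in DMSO, 1.88, 2.04 and 1.61 in rapamycin, 2.69, 2.82 and 1.78 in BA+DMSO, and 2.90, 2.66 and 3.01 in BA+rapamycin. These differences do not depend on the 75th percentile, and only BA+DMSO replicate 3, the brightest challenged array, lay within the unchallenged range. They were grouped after the values were seen and carry no test. The interval the files give for the main probe, chr11:120206967-120206984, is 18 bases long and, on the minus strand, lies beyond that of the probe at 1841, chr11:120206997-120207056. The files thus give the main probe a transcript position and an interval that put these 2 probes in opposite orders, and its place in the transcript is uncertain.

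**Figure D3:**
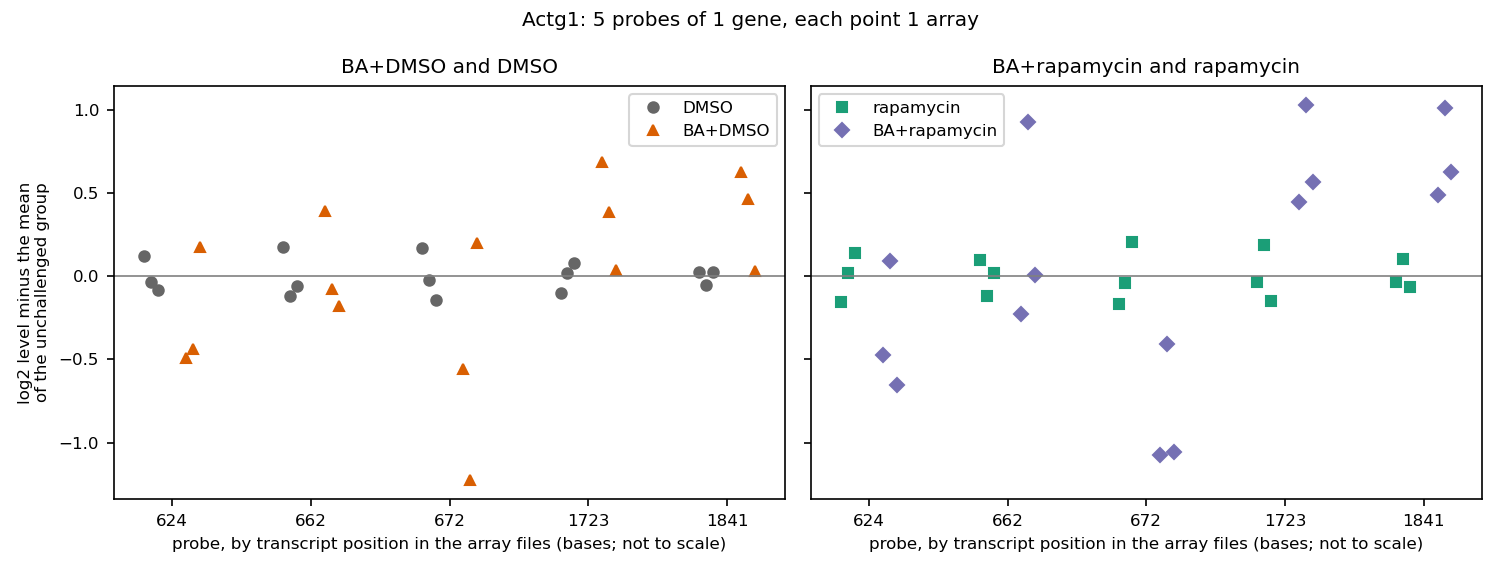
Change of the 5 Actg1 probes, ordered by the transcript position the files give, which is uncertain for the main probe at 1723, with 1 point per array and each probe set to 0 at the mean of its unchallenged group. The probes at 1723 and 1841 lie above 0 on all challenged arrays, while the probe at 672 lies below 0 on all challenged arrays but BA+DMSO replicate 3.

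The adhesion and crosslinking genes were not called in any comparison with all 12 arrays weighted equally. Vcl, the gene of vinculin, read 4.81, 4.90 and 4.92 in DMSO, 4.67, 4.46 and 4.68 in rapamycin, 4.42, 5.30 and 4.64 in BA+DMSO, and 4.77, 5.16 and 4.73 in BA+rapamycin at chr14:21852105-21852164. BA+DMSO replicate 2 was the highest array and replicate 1 of the same group the lowest. The change of Vcl was −0.09 in the challenge (95% interval −0.59 to 0.41) and 0.28 in the challenge under rapamycin (−0.21 to 0.78), and a second Vcl probe changed by −0.01 and 0.26.

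Actn1, the alpha-actinin of stress fibres and adhesions, read 3.05, 3.03 and 3.16 in DMSO, 2.98, 3.20 and 3.19 in rapamycin, 2.20, 2.45 and 3.37 in BA+DMSO, and 2.94, 2.78 and 2.43 in BA+rapamycin. BA+DMSO replicate 3 was the highest of all 12 arrays, while the other 2 of its group were below every unchallenged array. The change was −0.41 in both comparisons of the challenge, with intervals of −1.01 to 0.19 and −1.0 to 0.19. Without BA+DMSO replicate 3 Actn1 was at −0.76 in the challenge and was called (limma adjusted p = 0.0102), and with array weights it was at −0.47 and called in the challenge under rapamycin (limma adjusted p = 0.0121). Actn4, the second non-muscle alpha-actinin, read 6.28 to 6.53 on the unchallenged arrays and 6.02 to 6.80 on the challenged ones, and it changed by −0.13 (interval −0.58 to 0.32) and −0.03 (−0.48 to 0.43).

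Vim read 8.0, 7.94 and 7.95 in DMSO, 7.89, 8.0 and 7.89 in rapamycin, 8.13, 7.73 and 8.14 in BA+DMSO, and 7.69, 7.75 and 7.72 in BA+rapamycin at chr2:13504232-13504291. The BA+rapamycin arrays all lay below the unchallenged arrays, and BA+DMSO replicate 2 lay with them. The change was 0.04 ± 0.15 in the challenge (SE, n = 3 a group, interval −0.30 to 0.38) and −0.21 ± 0.15 in the challenge under rapamycin (interval −0.55 to 0.13, limma adjusted p = 0.295). After quantile normalization, however, the latter was −0.83 and was called (adjusted p = 0.00456), and it was −0.84 and −0.79 with normexp and in the deposited matrix.

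Rapamycin itself changed none of the 10 genes at the threshold. Under challenge (BA+rapamycin against BA+DMSO) limma called 0 of the 10, where 0.281% of all probes were called, 0.0719% higher and 0.209% lower (78 probes), and 2 genes had an unadjusted p under 0.05. These were Myh10, with a change of −0.77 ± 0.23 (SE, n = 3 a group, limma adjusted p = 0.141), and Myh9, with 0.41 ± 0.15 (adjusted p = 0.194), and they were also the 2 genes of 10 whose groups did not overlap, beside 14.5% of all probes. Both changes had the sign of the challenge. The challenge uses the same BA+DMSO arrays with the opposite sign, so the 2 comparisons are not independent. The agreement in sign was not tested. The values for the other 8 genes lay between −0.28 for Vim and 0.19 for Actg1, though the latter was −0.28 after quantile normalization. For Tpm3, Tpm4 and Cald1 the BA+DMSO and BA+rapamycin arrays overlapped.

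Without BA+DMSO replicate 2, limma called 3 of the 10 in this comparison, namely Myh9 (0.45, adjusted p = 0.027), Myh10 (−0.77, adjusted p = 0.0389) and Vim (−0.42, adjusted p = 0.0167), and the count over all probes went from 78 to 11092. That count was 224 without BA+DMSO replicate 1, 72 without BA+rapamycin replicate 3 and 30 to 47 without any other array. With all arrays kept it was 223 after quantile normalization, 259 after normexp and quantile normalization, 222 in the deposited matrix, 473 with the percentile over detected probes, 312 with brightness as a covariate, 37 with slide as a fixed block, 38 among probes well above background on all arrays, 21 without the filter on dim probes, and 0 with array weights or when only the 2 groups were fitted. In unchallenged mice (rapamycin against DMSO) limma called 0 of the 10, where 0.0036% of all probes were called, and 0 had an unadjusted p under 0.05. With array weights, whose estimation did not converge, it called 1512 of 27801 probes in this comparison and still 0 of the 10. Groups did not overlap for Myh10 (−0.37), Cald1 (−0.25) and Vcl (−0.27), which were lower with rapamycin, beside 21.5% of all probes. The interaction, rapamycin under challenge minus rapamycin alone, was called by limma for 0 of the 10 and for 0.0% of all probes, and 0 of the 10 had an unadjusted p under 0.05, with values from −0.40 for Myh10 to 0.37 for Vcl. Without BA+DMSO replicate 2 the interaction was called for 3058 of 27801 probes. By the rule of the study (an unadjusted p under 0.01 with a fold change over 4 or under 0.25) 0 of the 10 genes passed in any of these comparisons, beside 2.51% of all probes in the challenge, 5.14% in the challenge under rapamycin, 0.173% in rapamycin under challenge, 0.0216% in rapamycin alone and 0.212% in the interaction.

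The smooth muscle counterparts of the members moved downward in part. In the challenge 4 of 11 were called lower and 0 higher, beside 10.8% and 9.65% of all probes. The median change of the 11 was −0.81. Synpo2, an actin-bundling protein, fell by 2.58 and Lmod1, an actin nucleator of smooth muscle, by 1.91 on the log2 scale (limma adjusted p = 0.000955 and 0.0019). The tropomyosins Tpm1 and Tpm2 fell by 1.41 and 0.97 (limma adjusted p = 0.0207 and 0.0377). Myh11 changed by −0.56, Acta2 by 0.27 and Des, the muscle intermediate filament, by −1.05, none of which was called (limma adjusted p = 0.437, 0.402 and 0.114). Under rapamycin 5 were called lower and 1 higher, beside 22.9% and 18.9% of all probes. Des was at −1.79 and Tagln at 1.05 (limma adjusted p = 0.00999 and 0.013), while Myh11 was at −0.05.

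**Figure D4:**
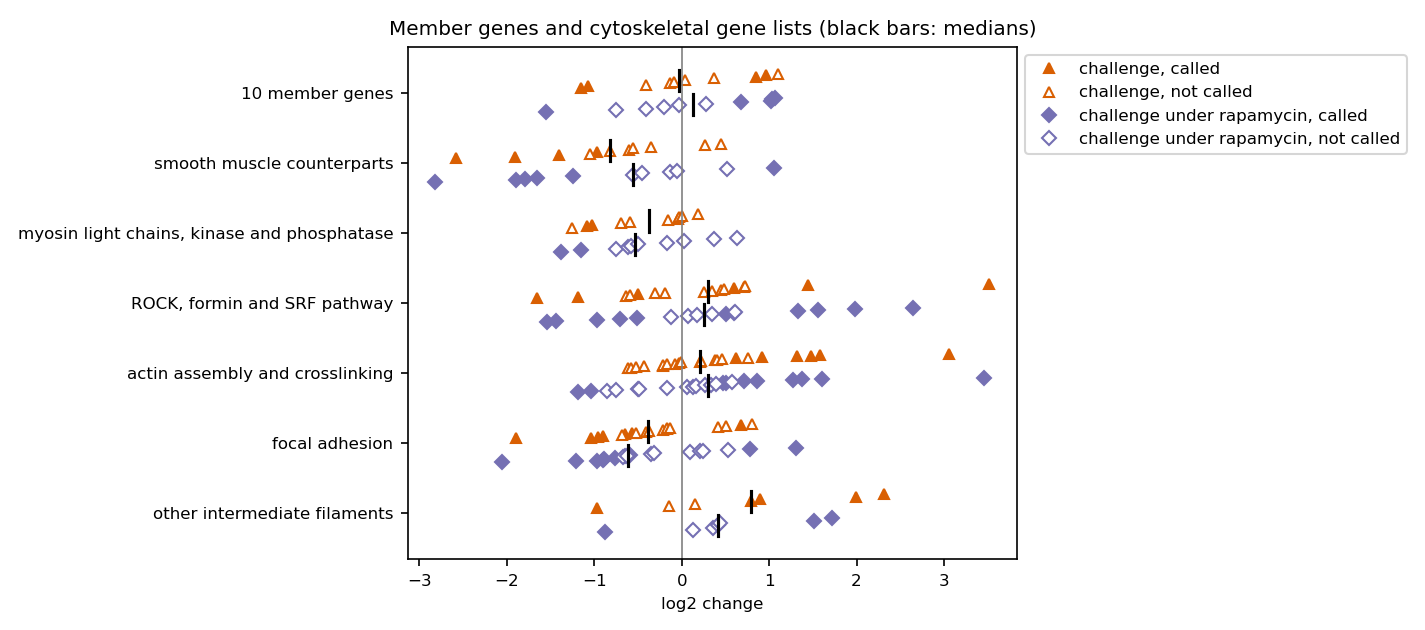
Log2 change of the 10 genes and of 6 lists of related genes in the challenge (triangles) and in the challenge under rapamycin (diamonds), filled where called by limma, with black bars for medians. The medians are −0.03 and 0.13 for the 10 genes, −0.81 and −0.56 for the smooth muscle counterparts and 0.21 and 0.30 for actin assembly.

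Of 10 tested genes around myosin, which were the light chains, their kinase and phosphatase and the myosin IIC heavy chain Myh14, 2 were lower and 0 higher in the challenge, namely Ppp1cb (−1.09), the catalytic subunit of myosin phosphatase, and Ppp1r14a (−1.02), its inhibitor (limma adjusted p = 0.0135 and 0.0467). The same count held under rapamycin, with 41.7% of all probes called there and 20.5% in the challenge, and with Ppp1cb at −1.38 and Ppp1r14a at −1.15. Mylk, the light chain kinase, was at −0.69 and the light chain Myl9 at 0.19 in the challenge, neither called.

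Of 16 genes of the ROCK, formin and SRF pathway, 3 were higher and 3 lower in the challenge. Of all probes 9.65% were called higher and 10.8% lower there. The formin Diaph3, listed on the array as Diap3, rose 11.5-fold (log2 change 3.52 ± 0.34, SE, n = 3 a group, limma adjusted p = 0.000219), Limk1, which phosphorylates cofilin, rose by 1.44 and the GTPase Rhoa by 0.60. Srf fell 3.15-fold (−1.66 ± 0.26, adjusted p = 0.00232) and its cofactor Mkl2 by 0.50, and Rock1, the kinase downstream of Rhoa, fell by 1.19. Mkl1 was at 0.49 and was not called. Under rapamycin 5 were higher and 5 lower, beside 18.9% and 22.9% of all probes, with Srf at −1.54 and Diaph3 at 2.65.

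The promoters of the members were searched for the CArG box, the element that SRF binds. All 10 genes had a promoter in the RefSeq table, with 12 entries from 250 bases before to 50 after the start (GRCm38.p6). The motif, CC, then 6 bases of A or T, then GG, reads as the same pattern on both strands, and it was in 2 of the 12 entries and in 1.63% of 32851 promoters of that length. The windows that hold it are printed with the motif in capitals. The motif begins 90 bases before the start of Actg1 and 227 before that of Vcl.
Actg1, chr11:120348551-120348610, minus strand: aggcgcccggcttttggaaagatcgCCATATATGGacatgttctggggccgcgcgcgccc
Vcl, chr14:20929148-20929205, plus strand: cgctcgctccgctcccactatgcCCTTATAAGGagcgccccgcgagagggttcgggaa

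A match describes the letters only. Vcl was not called in either comparison of the challenge. Actg1 was called higher only in the challenge under rapamycin, and its direction there depended on the scaling, as given above.

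Actin assembly genes were called higher more often than lower. In the challenge 6 of 22 were higher and 0 lower, beside 9.65% and 10.8% of all probes. Among the 6 was the bundling protein Fscn1, which rose 8.31-fold (limma adjusted p = 0.00118). The actin-sequestering thymosin Tmsb10 (1.58, limma adjusted p = 0.00166), profilin Pfn1 (1.32) and cofilin Cfl1 (0.62) were also among them. Under rapamycin 8 were higher and 2 lower, beside 18.9% and 22.9% of all probes. Beta actin Actb was at 1.27 there (limma adjusted p = 0.00659), after 0.76 in the challenge on vehicle (adjusted p = 0.0811). The severing protein Gsn and calponin 3 gene Cnn3 were at −1.19 and −1.04 under rapamycin. The crosslinker Flna was at −0.01 and 0.33, not called.

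Of 18 focal adhesion genes, 6 were called lower and 1 higher in the challenge, beside 10.8% and 9.65% of all probes. Tes, a LIM protein of adhesions, fell by 1.90 and the tensin Tns1 by 1.03 (limma adjusted p = 0.00659 and 0.0186), and Tln1, the talin that binds vinculin, fell by 0.64 (adjusted p = 0.0359). The integrin subunit Itgb1 rose by 0.67 (adjusted p = 0.0158), and Zyx was at −0.68 and was not called. Under rapamycin 8 were lower and 2 higher, beside 22.9% and 18.9% of all probes, with Itgb1 at 1.31 and Itgav at 0.78. Of 7 other intermediate filament and linker genes, 4 were higher and 1 lower in the challenge, beside 9.65% and 10.8% of all probes. Krt8 was at 2.32, Lmnb1 at 1.99 and the desmin partner Synm at −0.97. Krt8 was well above background on 2 of 3 DMSO arrays and 1 of 3 BA+rapamycin arrays, so the size of its change is uncertain. Under rapamycin 2 of the 7 genes were higher and 1 lower, beside 18.9% and 22.9% of all probes. The mesothelial marker Msln, well above background on all 12 arrays, was at 2.83 in the challenge. Its part in the Krt8 value was not tested.

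Differences between 2 genes on the same array do not depend on the 75th percentile, so 10 pairs were compared between the 6 challenged and the 6 unchallenged arrays. The gap between Myh9 and Myh10 widened by 2.31 log2 units (two-sided exact permutation test, p = 0.00216, adjusted over 10 pairs 0.00541, n = 6 and 6). Every challenged array had higher Myh9 and lower Myh10 than every unchallenged array, so this gap had to separate them. That p is thus the smallest the test allows, and it adds no evidence to the values of the 2 genes. The gap averaged 0.92 ± 0.14 for DMSO, 1.48 ± 0.17 for rapamycin, 2.92 ± 0.59 for BA+DMSO and 4.10 ± 0.28 for BA+rapamycin (mean ± SD over 3 mice), and no 2 groups overlapped. With 3 mice a group the smallest p that the exact test allows is 0.1, and each of the 4 comparisons of this gap reached it.

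Both tropomyosin differences were higher on the challenged arrays. The probes were not assigned to muscle or non-muscle isoforms, so a shift between such isoforms was not tested. Tpm3 minus Tpm1 changed by 2.54 and Tpm4 minus Tpm2 by 2.17, and in neither did challenged and unchallenged arrays overlap (exact permutation adjusted p = 0.00541 for both, n = 6 and 6). Tpm3 minus Tpm1 was 1.16 with the mean over the tested probes of a gene, the lowest value among its alternatives. Vim minus Des changed by 1.34 and Vcl minus Tln1 by 0.74 (exact permutation adjusted p = 0.00618 and 0.00812), and the arrays overlapped in both. Vim minus Des was 0.43 after normexp and quantile normalization (exact permutation adjusted p = 0.0866), and Vcl minus Tln1 was 0.054 with the mean over probes (exact permutation adjusted p = 0.511). Actn1 minus Actn4 changed by −0.33 (exact permutation adjusted p = 0.00541), with no overlap.

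Actg1 minus Actb changed by −0.49, and Cald1 minus Cnn1 by −0.67 (exact permutation adjusted p = 0.00618 for both, n = 6 and 6). The Actg1 difference was −0.22 after quantile normalization, −0.23 after normexp and quantile normalization and −0.21 in the deposited matrix, and it no longer passed (exact permutation adjusted p = 0.173, 0.0928 and 0.173). The Cald1 difference had the other sign after quantile normalization (0.18), after normexp and quantile normalization (0.31) and in the deposited matrix (0.17). Actn1 minus Actn4 was −0.0011 after quantile normalization and 0.024 after normexp and quantile normalization. Actg1 minus Acta2 changed by 0.13 and Myh10 minus Myh11 by −1.05, and neither passed the exact permutation test (adjusted p = 0.444 and 0.0625). Without BA+DMSO replicate 1 or 3 the latter was −1.26 and −1.39, with adjusted p of 0.0337 and 0.0192, whereas it was −0.56, −0.47 and −0.58 after quantile normalization, after normexp and quantile normalization and in the deposited matrix (exact permutation adjusted p = 0.211, 0.274 and 0.179). In these differences of 6 against 6, all challenged arrays were on 1 slide, and the part of slide was not tested.

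**Figure D5:**
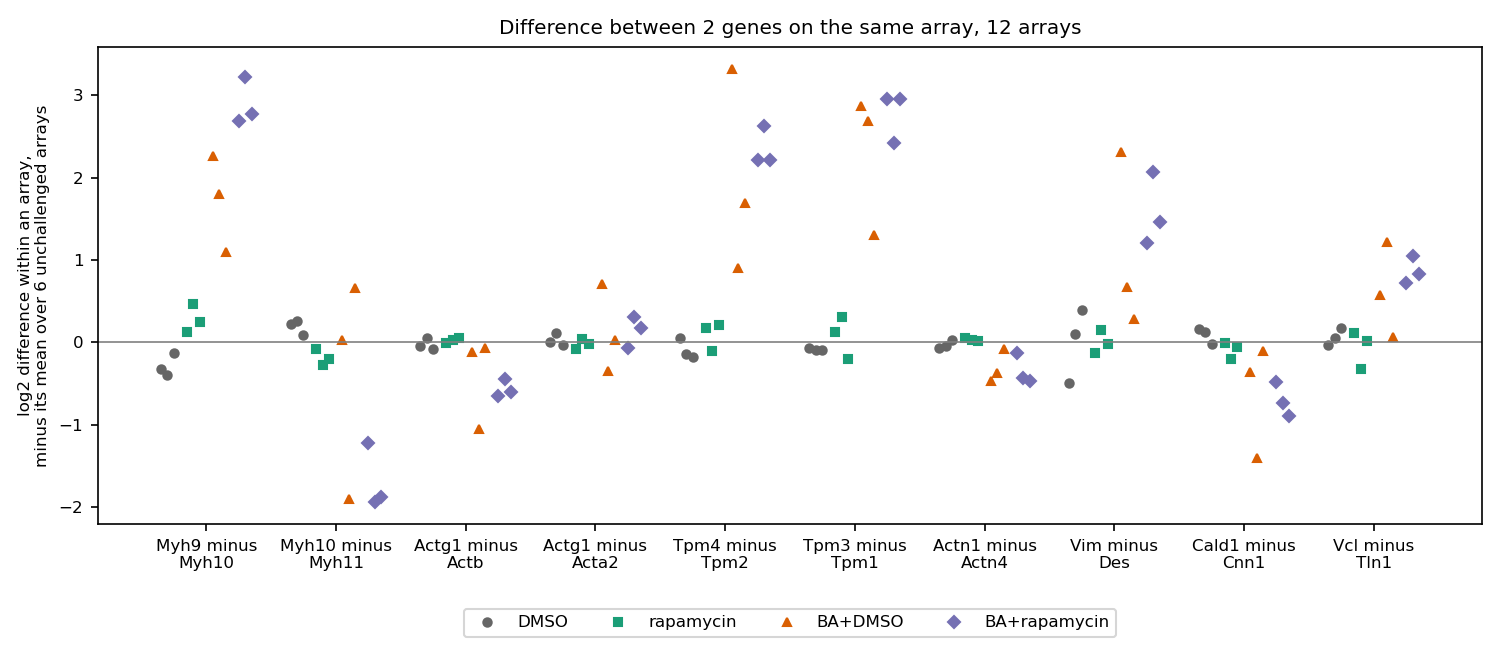
Log2 difference between 2 genes on the same array for 10 pairs, each set to 0 at the mean of the 6 unchallenged arrays, with 1 point per array and the 4 groups side by side. For Myh9 minus Myh10, Tpm4 minus Tpm2 and Tpm3 minus Tpm1, all 6 challenged arrays lie above all unchallenged ones.

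On the slide that held both challenged groups, the 3 BA+rapamycin arrays could be set against 2 rapamycin arrays. Within that slide Myh9 changed by 1.04, Tpm3 by 1.01 and Myh10 by −1.5, and all 3 were called (limma adjusted p = 0.032, 0.0411 and 0.031). Tpm4 was at 0.98 and Actg1 at 0.66 and neither was called (limma adjusted p = 0.179 and 0.149). For the challenge on vehicle no slide held both groups. With slide as a fixed term, which the rapamycin arrays on both slides allow, the changes were 0.78 for Myh9, 0.89 for Tpm3, −0.99 for Myh10 and −1.08 for Cald1, and limma called 0 of the 10 genes and 15 of all probes, with 3026 probes at an unadjusted p under 0.05.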

How the data were processed

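RNA from 12 aortas was labelled with 1 dye and hybridised by the authors to Agilent mouse arrays on 2 slides. The deposited scanner files hold, per the file headers, a background-subtracted processed intensity for each of 62976 spots, 3671 of them controls, together with flags of 0 or 1. The headers name Feature Extraction 10.7.1.1 and the build mm9, whereas the submitters' processing notes name version 9.5.1.1. The authors' matrix is a further intensity table, whose columns matched a quantile normalization of the scanner signal with correlations of at least 0.999941 over probes, and it was used as an alternative. The authors' normalization of that matrix is not given in the sources used here.

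Spots with an outlier flag were removed, spots of a probe were averaged and 6 of 55681 probes without a value on some array were dropped. Signals were converted to log2 and each array's 75th percentile was subtracted. A probe was tested where all 3 arrays of some group had it well above background (27801 probes, 20026 gene names). A single limma 3.58.1 model (R 4.3.3) held the means of 4 groups, with Benjamini-Hochberg adjustment for each contrast in turn and calls at an adjusted p under 0.05. The script was tested on simulated data. Pairs of genes were compared by two-sided exact permutation tests (SciPy). The number of arrays limits the precision, and no spot was saturated.

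Members and gene lists were chosen with earlier results of these data known, so they are a description and not independent evidence. The pairs were built from these genes, and the same holds for them. Genes of the lists were named by 1 rule: the 2 largest rises and 2 largest falls among called genes of each list, plus a fixed set of genes (Myh11, Acta2, Tpm1, Tpm2, Actb, Des, Srf, Mkl1, Rhoa, Rock1, Mylk, Myl9, Flna, Tln1 and Zyx) given whatever their change. Some items are not reported here. Pfn1, Cfl1 and Mkl2 were added after their values were seen. Groups came from the treatment labels and replicates are numbered in order of deposition. Alternatives were other scalings, filters, blocks, weights, probe rules, the study's rule and leaving out each array.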

Additional observations from a re-analysis of the deposited data

How the results depend on the processing

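The directions of Myh9, Myh10 and Tpm3 in both comparisons of the challenge, of Tpm4 in both and of Cald1 in the challenge held under all alternatives tried, although not all their calls did. Against 4 genes called in the challenge, limma called 0 with slide as a fixed block (15 of 27801 probes over all), 0 with array weights, whose estimation did not converge (112), 0 when only the 2 groups were fitted (1244) and 0 by the study's rule, and 3 to 5 without each array. Over all probes in the challenge limma called 10270 of 27801 with slide as a random block, against 5697 in the main fit. It called 4257 of 55675 without the filter on dim probes. Against 5 in the challenge under rapamycin, it called 3 with slide as a fixed block (7923 of all probes), 3 on slide 2 alone, which was added after the data were seen (3268), 2 with array brightness as a covariate (1786), 8 with array weights (18256), 0 by the study's rule, and 3 to 6 without each array. For rapamycin under challenge it called 0 to 3 without each array. The cause of these differences was not tested. The 75th percentile over probes well above background on all arrays moved the median of all probes in rapamycin under challenge from −0.01 to 0.13.

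Single values turned as follows. In the challenge, Vim was −0.40, −0.37 and −0.39 and Actg1 −0.12, −0.17 and −0.12 after quantile normalization, after normexp and quantile normalization and in the deposited matrix. With slide as a fixed block Vim was −0.023 and Vcl 0.012, and Actn4 was 0.14 with array weights and 0.13 with brightness. Without each array, Vim ranged from −0.033 to 0.17, Vcl from −0.35 to 0.092 and Actn4 from −0.36 to 0.026. In the challenge under rapamycin, Actg1 was −0.22, −0.28 and −0.22 in the first 3 settings, and Actn4 was 0.16 with the percentile over detected probes and −0.11 to 0.052 without each array. With brightness as a covariate Vim was 0.081, Vcl −0.33, Cald1 0.089, Actn1 0.31 and Actn4 0.42. In rapamycin under challenge Actg1 was −0.28, −0.29 and −0.27 in the first 3 settings and −0.043 over the mean of its probes. Of the within-array differences, 8 of 10 passed the exact test, and 5 did with quantile normalization, 4 with normexp and 5 in the deposited matrix. Cald1 minus Cnn1 was then 0.18, 0.31 and 0.17, Actn1 minus Actn4 was 0.024 with normexp, and Actg1 minus Acta2 was −0.35 over the mean of the probes of a gene. Over all 10 genes and all contrasts, 109 of 1260 recomputed values changed sign, 106 of them for values that were not called.

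Titles of 10 of the 12 samples hold a code whose meaning the labels do not state, and BA+DMSO replicates 2 and 3, whose titles hold none, were each given a block of their own. With the code as a random replicate block (correlation 0.496) limma called 4 genes in the challenge, 4 in the challenge under rapamycin and 0 in the other contrasts (5320 and 11130 of all probes in the first 2, and 458 with and 8 without the challenge for rapamycin, and 0 for the interaction), with Tpm4 at 0.80 and no longer called (adjusted p = 0.114).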
